A study of Mus musculus with 4 samples.

Results

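Sdk1, Rbms3, Auts2, Dab1, Sox5, Camta1, Accn1 and Fam155a are long mouse genes that held unusually many regions in a table of methylated DNA from CD4+ T cells. Every region in that table has a Th17 value of 0, so the counts and spacing given here are of regions without Th17 reads. The 8 genes were chosen by the number of regions and the distance those regions cover, at least 15 regions over at least 0.5 Mb. Both measures thus describe the choice and are not tested. The 8 genes held 153 of the 10000 regions in the table, which carries 5349 gene names in all. The median over all gene names was 1 region, and 63.6% of them had just 1. Regions on introns made up 147 of the 153, or 96.1%, against 78.4% of all other regions. Genes with 10 to 14 regions gave 95.4%, so this was not particular to the 8 genes, which ranked from 4 to 12 by intronic regions among genes read as 1 locus. Fgfr2, AC114005.5, Cdh13 and Odz4 also reached both thresholds and are not among the 8, so the set holds many but not all of the genes with the most intronic regions.

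The study captured methylated DNA from 4 populations of CD4+ T cells of female Balb/c mice, naive, Th1, Th17 and regulatory (Treg), each as 1 library. Naive cells were CD3+ CD4+ with high CD45RB. Among CD3+ CD4+ cells with low CD45RB, those secreting interferon gamma without IL-17A were taken as Th1 and those secreting IL-17A without interferon gamma as Th17, and Treg cells were CD3+ CD4+ with the highest CD25. All were given PMA (10 ng/ml) and ionomycin (500 ng/ml) for 3 h, the Treg cells after their sort and the others before it, so the order of steps goes with the Treg library and cannot be told apart from the cell type. The labels do not say how many animals gave cells to each library. A list of captured regions does not measure which genes the cells express, so the sorts were not checked.

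Cytosine methylation in mammals sits mainly on CG dinucleotides, and the bodies of genes are commonly methylated while CG-rich promoters are commonly not. Capture with a methyl-CpG-binding protein pulls down fragments that carry several methylated CGs, so reads at a place rise with both its methylation and its CG content. Most of the length of a very long gene is intron, and many of the longest mammalian genes are neuronal, since they encode adhesion molecules, channels and their regulators. Of the 8 genes, Sox5 and Camta1 encode transcription factors, an HMG-box protein and a calmodulin-binding activator. Auts2 encodes a nuclear protein that takes part in transcriptional control in neurons, and Rbms3 an RNA-binding protein. Sdk1 is an immunoglobulin-family adhesion molecule of synapses, Dab1 the intracellular adaptor of reelin signalling, Accn1 (now Asic2) an acid-sensing ion channel subunit and Fam155a a partner of the sodium leak channel.

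Depth was low and set the limits of every comparison. The naive library held 34277 reads in the table, the Th1 library 19548 and the Treg library 74571, and the authors' value for a region is its reads times 0.996, 1.68 and 0.352 respectively. All Th17 values in the table are 0, so the genes are described in the other 3 libraries. With 1 library per population there is no replicate check, and intervals are exact 95% intervals that cover counting error only.

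One of the 153 regions was assigned to a promoter, that of Rbms3. RefSeq gives Rbms3 a pair of start sites, and the 250 bases before each are shown because CG dinucleotides, in capitals, are what the capture reads. The windows are on the minus strand of GRCm38.p6, at chr9:117252484-117252733 and chr9:117629914-117630163, while the deposited region is in mm9 coordinates, so which of them it belongs to was not matched.
Rbms3 start 1: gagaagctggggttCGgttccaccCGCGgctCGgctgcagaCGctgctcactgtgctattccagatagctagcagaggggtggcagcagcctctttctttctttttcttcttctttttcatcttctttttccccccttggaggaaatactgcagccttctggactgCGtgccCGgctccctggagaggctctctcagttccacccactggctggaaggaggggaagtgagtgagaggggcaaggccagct
Rbms3 start 2: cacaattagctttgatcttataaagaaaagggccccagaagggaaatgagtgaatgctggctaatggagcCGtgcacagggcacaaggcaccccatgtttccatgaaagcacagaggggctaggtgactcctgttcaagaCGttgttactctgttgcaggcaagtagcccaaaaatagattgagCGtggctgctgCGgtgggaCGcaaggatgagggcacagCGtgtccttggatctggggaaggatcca
The letters CG, which read the same on both strands, occurred 7 and 6 times. Over 32851 RefSeq promoter windows of the same length the median was 6 and 92.1% held at least 1 CG, so neither Rbms3 window is rich in CG. RefSeq windows were found for 6 of the 8 genes. The window of Sdk1 held 44 CGs, those of Dab1 10 and 40, that of Camta1 18, those of Accn1 14 and 9 and that of Sox5 3. None of these genes had a promoter region in the table, and their windows lay on both sides of the median.

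**Figure D1:**
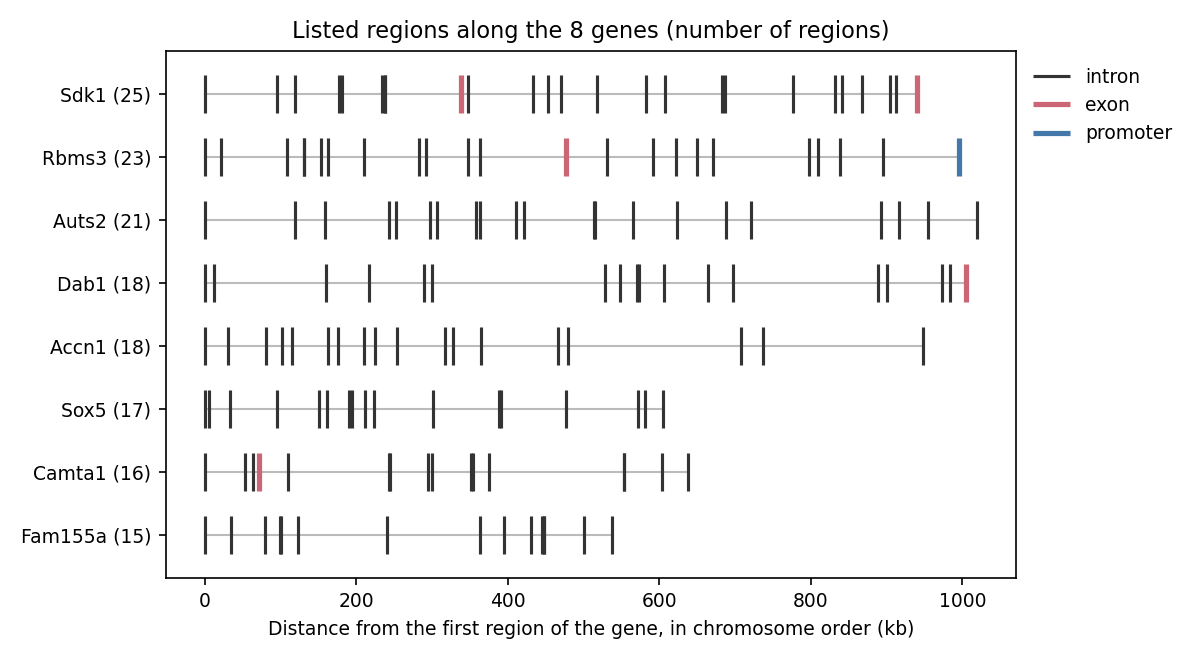
Position of each listed region (vertical lines: intron in black, exon in red, promoter in blue) along the 8 genes, with the distance from the first region of the gene in kb on the horizontal axis and the number of regions in brackets. Groups of 3 regions joined by gaps of at most 10 kb stand in Sdk1 and Fam155a, and pairs so joined in every gene but Accn1. Wide empty stretches stand in Dab1, Accn1, Camta1 and the middle of Fam155a.

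Sdk1 held the most regions of the 8 genes, 25 over 941 kb (chromosome 5, 141747190 to 142688067), of which 23 were intronic and 1 each lay on exon 3 and exon 41. Its regions were spread widely. The shortest stretch that held 13 of the 25 regions covered 44.9% of the span, the largest such share, and its first, middle and last stretches of equal length held 8, 8 and 9 regions. Even so, 13 regions stood in 6 groups, among them 3 regions within 4.56 kb.

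Rbms3 had 23 regions over 996 kb (chromosome 9, 116542600 to 117538785), 21 in introns, 1 on exon 2 and the promoter region at the end of the span. Its gaps varied least, with a coefficient of variation of 0.794, the SD divided by the mean. Its closest pair was 2 regions 38 bp apart (116673685 to 116674219) that held 5 and 3 naive, 1 and 2 Th1 and 3 and 9 Treg reads.

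Auts2 had 21 intronic regions over 1020 kb (chromosome 5, 131984529 to 133004870), the longest span of the 8 genes. It also had the widest typical spacing, with a median gap of 46.5 kb. All 5 of its groups were pairs. The closest pair, 1.06 kb apart (132497998 to 132499578), held 5 naive, 4 Th1 and 24 Treg reads. These raw counts are not comparable between libraries, since the Treg library was by far the deepest. The pair had deposited Treg values of 4.934 and 3.525, naive values of 2.988 and 1.992 and Th1 values of 1.681 and 5.043.

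Dab1 and Accn1 were the most thinly covered, with 17.9 and 19.0 regions per Mb. Dab1 had 18 regions over 1005 kb (chromosome 4, 103385840 to 104390891), of which 17 were intronic and 1 lay on exon 11, with empty stretches of 228 and 191 kb. Accn1 also had 18, all intronic, over 948 kb (chromosome 11, 80706962 to 81655409). They crowded toward the start of the span, with 10, 5 and 3 regions in its first, middle and last stretches of equal length, and 9 regions lay within 23.5% of the span, the smallest such share of the 8 genes. Yet no neighbours in Accn1 were within 10 kb, the closest being 10.5 kb apart.

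Sox5 had 17 intronic regions over 605 kb (chromosome 6, 144114679 to 144719538), the highest density at 28.1 per Mb. Its 4 groups were all pairs. Camta1 had 16 regions over 639 kb (chromosome 4, 150592547 to 151231133), 15 intronic and 1 on the exon the authors number 1, and 10 of the 16 stood in 5 pairs. Its gaps varied most, with a coefficient of variation of 1.21, and its widest gap, 178 kb, took up 27.9% of the span. Fam155a had 15 intronic regions over 538 kb (chromosome 8, 9223334 to 9761175), just inside both thresholds. It held the closest neighbours of all, 5 bp apart, within a group of 3 regions in 3.53 kb (9668397 to 9671928) with 17 naive, 4 Th1 and 23 Treg reads. The middle of 3 equal stretches of its span held 1 region.

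**Figure D2:**
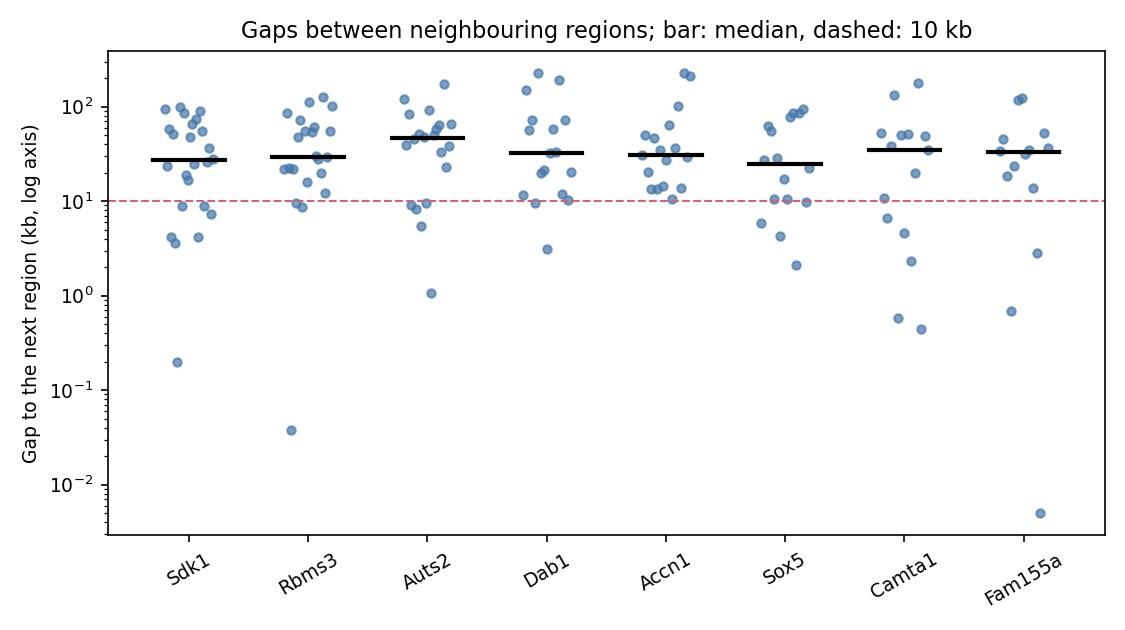
Gap from each region to the next in kb, on a log axis, for the 8 genes, with each point a gap, the bar the median of the gene and the dashed line 10 kb. Medians lie between 24.6 kb in Sox5 and 46.5 kb in Auts2, and Accn1 has no point under the line.

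Over the 8 genes the 145 gaps had a median of 32.3 kb, with quartiles of 12.1 and 58.0 kb, and 20% were at most 10 kb. This gave 27 groups with 56 regions, 36.6% of the 153, of which 25 were pairs. No region of another gene name lay inside any of the 8 spans. Just outside the threshold stood genes with 14 regions, Ctnnd2 over 756 kb, Npas3 over 750 kb, Nckap5 over 733 kb, Rora over 656 kb and Kalrn over 506 kb, then Prkg1 with 13 over 986 kb. Cdh4, with 20 regions over 436 kb, missed only the span. In the 43 genes with 10 to 14 regions, 18.1% of 454 gaps were at most 10 kb and the median gap was 37.6 kb. The coefficient of variation of the gaps had a median of 0.907 in those genes (range 0.416 to 1.42) and 0.949 in the 8 genes (0.794 to 1.21), so all 8 lay inside that range.

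The authors' region numbers run along each chromosome, so the numbers between the first and last region of a gene count the places the numbering holds there. The 8 spans covered 6286 numbers, and the 153 listed regions were 2.43% of them, from 1.90% in Camta1 to 3.46% in Fam155a. The 43 genes with 10 to 14 regions gave 2.53%. Over the whole table, between genes as well as within them, 10000 of 1483567 numbers were listed, or 0.674%. The files do not say what a number stands for, and these shares follow in part from choosing genes by their count. Numbers per kb ran from 0.727 in Dab1 to 1.32 in Camta1. Of the neighbouring pairs, 5 had consecutive numbers.

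Other very long genes were counted from a list written from general knowledge of large mouse genes. Of 54 such genes 53 had a region, 34 had at least 5 and 11 at least 10, with a median of 6. Cdh13, a cadherin anchored to the membrane by a lipid, had 21 regions, Rora, a nuclear receptor, 14, and the scaffold gene Magi1 and the kinase gene Prkg1 13 each. The 347 regions of the list held on average 3.66 naive, 1.86 Th1 and 6.82 Treg reads.

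**Figure D3:**
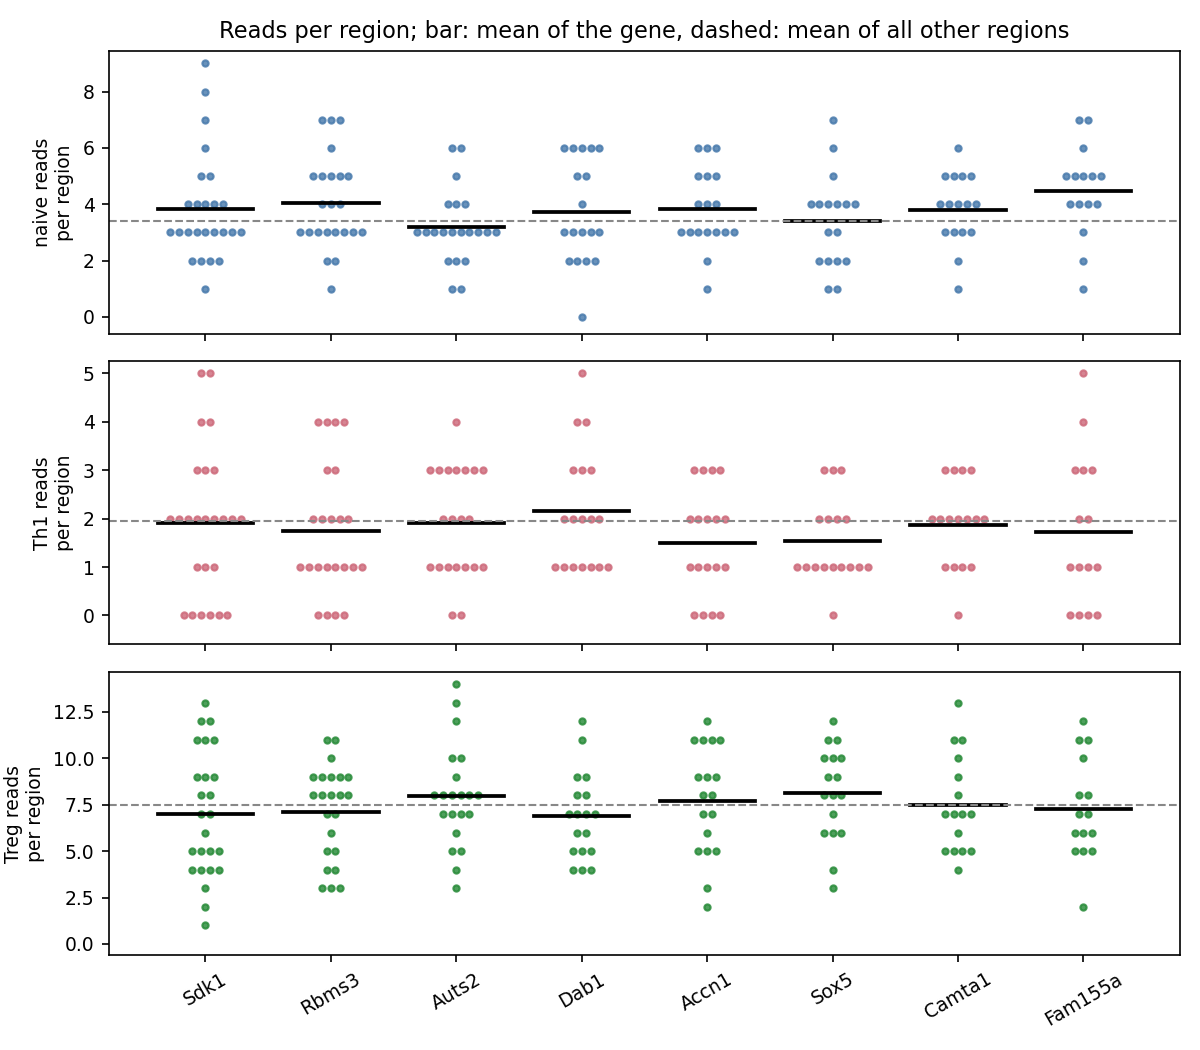
Reads per region in the naive, Th1 and Treg libraries (top to bottom), with each point a region, the bar the mean of the gene and the dashed line the mean of all other regions of the table (3.42, 1.96 and 7.46 reads). Points of all 8 genes overlap in each library, and Th1 counts run from 0 to 5.

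Naive reads per region averaged 3.78 over the 153 regions (interval 3.48 to 4.10), Th1 reads 1.8 (1.60 to 2.03) and Treg reads 7.42 (7.0 to 7.87). All other regions averaged 3.42 (3.39 to 3.46), 1.96 (1.93 to 1.98) and 7.46 (7.40 to 7.51). The naive mean of the 8 genes was thus above that of the other regions beyond counting error, while the intervals for Th1 and Treg overlapped. This was not particular to the 8 genes, since the genes with 10 to 14 regions averaged 3.71 naive reads (3.55 to 3.89). Median region length was 249 bp, the same as elsewhere. By the mean of the 3 values, 11 of the 153 regions lay above the 90th percentile of the table and 12 below the 10th.

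Fam155a had the highest mean naive value of the 8 genes, 4.45 (interval 3.45 to 5.65), and Auts2 the lowest, 3.18 (2.46 to 4.04). In Th1 the means ran from 2.52 in Accn1 (1.66 to 3.67) to 3.64 in Dab1 (2.59 to 4.98). In Treg they ran from 2.43 in Dab1 (2.02 to 2.90) to 2.86 in Sox5 (2.40 to 3.38). In each library the interval of the highest gene overlapped that of the lowest, so no order of the genes is resolved at this depth. Deposited values were in the order naive, Th1, Treg in 5 of the 8 genes, and naive was highest in 7. Sox5 and Accn1 had Treg above Th1, and in Auts2 the Th1 value, 3.20, was next to the naive one. The order depends on the authors' scaling. After scaling each library to the same table total, Treg was below Th1 in 2 of the 8 genes, in place of 6. Treg was then below naive in 6, in place of 8, and Th1 below naive in 6, in place of 7.

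**Figure D4:**
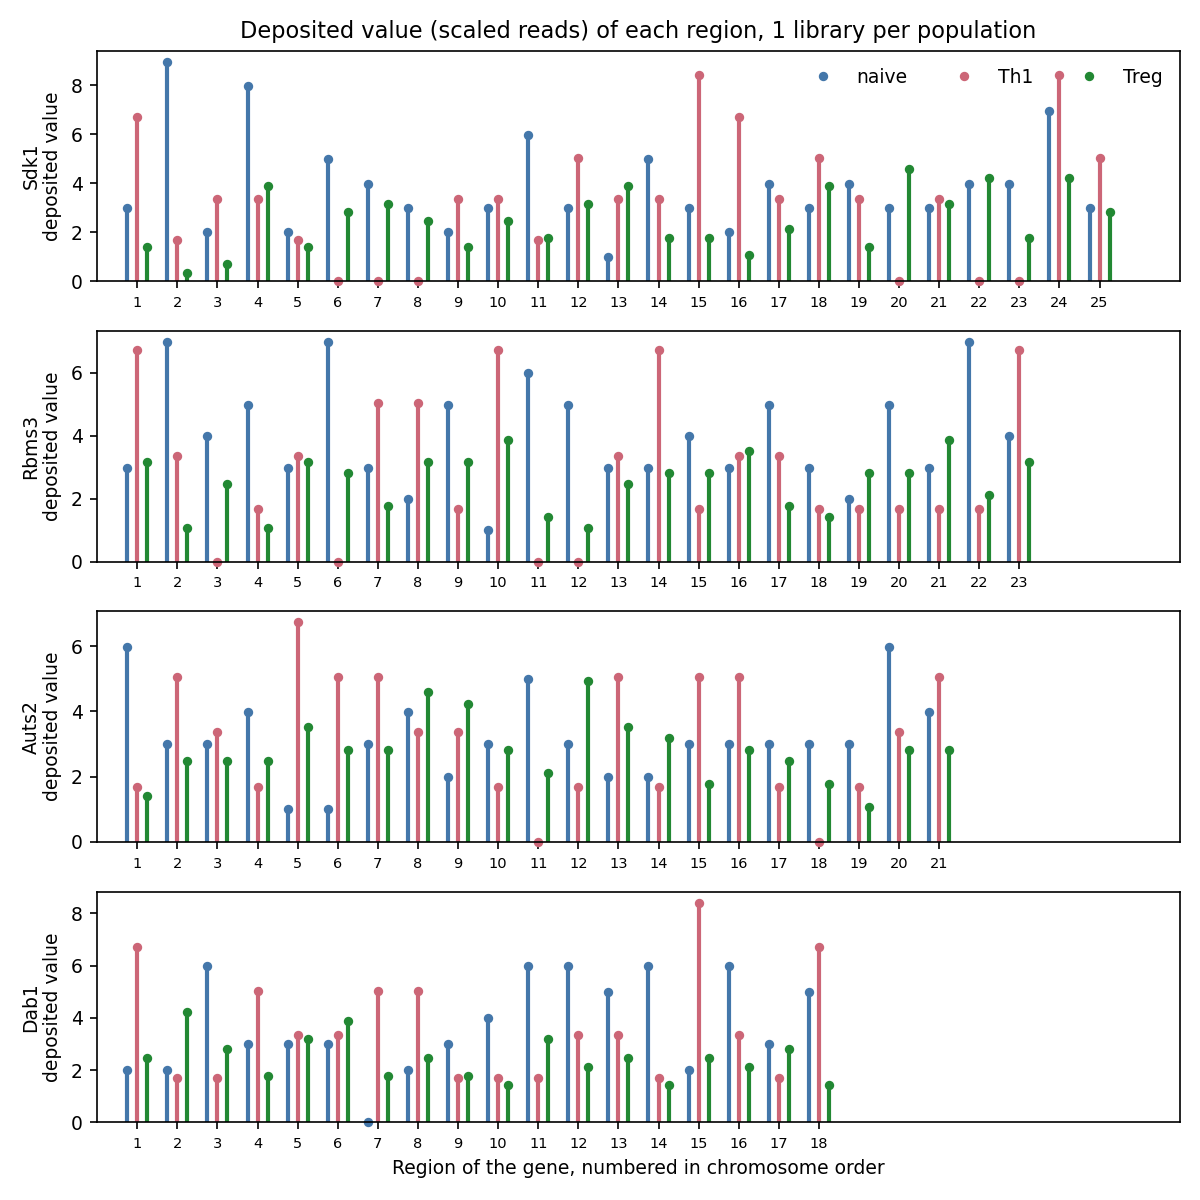
Deposited value (scaled reads) of each region of Sdk1, Rbms3, Auts2 and Dab1 in the naive (blue), Th1 (red) and Treg (green) libraries, with regions numbered in chromosome order. Th1 has points at 0 at 6 Sdk1, 4 Rbms3 and 2 Auts2 regions. Those of Sdk1 include a run of 3 neighbours, regions 6 to 8, and the neighbours 22 and 23. Th1 reaches its highest value, 8.40, at 2 regions of Sdk1 and 1 of Dab1.

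Within each gene the regions differed in which library led. The naive value was highest at 80 of the 153 regions, the Th1 value at 51 and the Treg value at 22. These are 52.3%, 33.3% and 14.4%, against 42.6%, 39.8% and 17.7% of all other regions and 49.9%, 34.8% and 15.3% in the genes with 10 to 14 regions, so the genes with 10 to 14 regions had nearly the same split. The strongest region of Sdk1 by mean value, in an intron (142659618 to 142659900), held 7 naive, 5 Th1 and 12 Treg reads and had the highest mean value of all 153 regions. In Rbms3 it was the promoter region (117538300 to 117538785), with 4 naive, 4 Th1 and 9 Treg reads. In Fam155a it was an intronic region (9323607 to 9324019) with 5, 5 and 10, and in Dab1 the region on exon 11 (104390601 to 104390891) with 5, 4 and 4. Camta1 led with an intronic region of 5, 3 and 11 reads, Sox5 with 5, 2 and 9, Auts2 with 6, 2 and 8 and Accn1 with 3, 3 and 12. The 8 strongest regions thus held 3 to 7 naive and 2 to 5 Th1 reads. Their Poisson intervals are wide: the Th1 value of the Sdk1 region was 8.40 with an interval of 2.73 to 19.6. Which region is strongest rests on the deposited scaling, in which 1 Th1 read adds 1.68 to a value and 1 Treg read 0.352.

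The first comparison between populations set Th1 against naive. Summed over the 153 regions, the Th1 value was below the naive one by a log2 ratio of -0.31 (interval -0.52 to -0.10), from 276 Th1 and 578 naive reads. All other regions gave -0.05 (-0.08 to -0.03), and the genes with 10 to 14 regions -0.32 (-0.44 to -0.20), so genes with 10 to 14 regions lay on the same side. The lowest ratios were those of Fam155a at -0.61 (-1.32 to 0.06) and Accn1 at -0.60 (-1.30 to 0.06), and the highest that of Auts2 at 0.01 (-0.59 to 0.60). Of the 8 genes 6 lay below the rest of the table and 2, Auts2 and Dab1, above it. None of the 8 intervals excluded the ratio of the rest of the table, and over the 57 genes with at least 10 regions 1.75% did. No difference in a single gene was detectable at this depth.

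Region by region, with a threshold of 2-fold on the values after adding 0.5 to each, 22 of the 153 regions (14.4%) were higher in Th1 than in naive, where 19.4% of the whole table were. Lower in Th1 were 50 (32.7%), where 29.0% of the table were. The genes with 10 to 14 regions gave 12.7% and 35.0%. Sdk1 and Rbms3 had 9 lower regions each, and Fam155a had 7 of its 15. A single read can carry a region past this threshold, so these counts describe the libraries and do not show changed regions.

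Treg was set against naive next. The summed Treg value was lower by a log2 ratio of -0.52 (-0.67 to -0.38), where all other regions gave -0.38 (-0.39 to -0.36). Ratios ran from -0.80 in Fam155a (-1.25 to -0.34) and -0.68 in Rbms3 to -0.25 in Sox5 (-0.70 to 0.22) and -0.18 in Auts2 (-0.60 to 0.25). They were below the rest of the table in 6 genes and above it in Auts2 and Sox5, and 0 of the 8 intervals excluded it, against 1.75% of the 57 genes. Regions higher in Treg by 2-fold numbered 10 (6.54%, against 8.33% of the table) and lower ones 34 (22.2%, against 22.2% of the table), of which 7 were in Rbms3. The genes with 10 to 14 regions gave -0.53 (-0.61 to -0.45). After scaling each library to the same table total, the ratio over the 8 genes was -0.15 and 15 regions were higher (9.80%, against 15.6% of the table at that scaling) and 22 lower (14.4%, against 15.4%), since the authors' scaling itself puts Treg below naive over the table as a whole.

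Treg against Th1 gave -0.21 (-0.40 to -0.02) over the 8 genes and -0.32 (-0.35 to -0.30) over all other regions, and the genes with 10 to 14 regions gave -0.21 (-0.32 to -0.10). The interval reached above 0 without Sdk1 (to 0.04), without Dab1 (to 0.05) and with intronic regions alone (to 0.02). The direction rests on the authors' scaling, since at equal table totals the ratio was 0.11 (-0.08 to 0.30). Dab1 had the lowest ratio, -0.58 (-1.12 to -0.03), and Sox5 the highest, 0.15 (-0.46 to 0.82), and both intervals held the value of the rest of the table. Over the 8 genes 0 intervals excluded it, against 3.51% of the 57 genes. Higher regions numbered 28 (18.3%) and lower ones 22 (14.4%), where 17.0% and 21.0% of the table were called. At equal table totals they numbered 37 (24.2%) and 16 (10.5%), where 22.8% and 15.5% of the table were called.

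**Figure D5:**
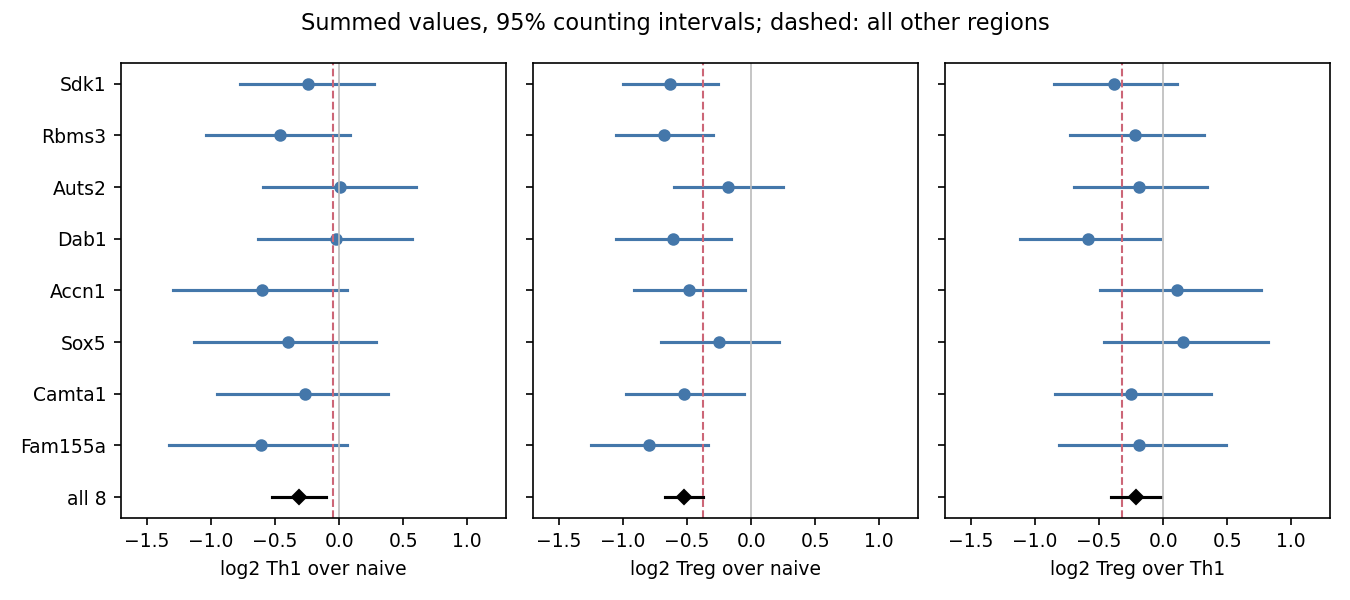
Log2 ratio of summed values between libraries for each of the 8 genes (points) and all together (diamond), with exact 95% counting intervals as lines and the ratio of all other regions as the dashed red line. Each gene's line crosses the dashed one in all 3 panels, while the diamond lies below it for Th1 over naive and for Treg over naive.

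Reads were found in all 3 libraries at 130 of the 153 regions, 85.0%, where 85.9% of the whole table were. The other regions lacked Th1 reads at 22 places and naive reads at 1, and no region lacked Treg reads, the deepest library. The Th1 zeros were 14.4% of the regions, against 12.3% of the table and 14.7% in the genes with 10 to 14 regions, so their number is near the background. They stood beside at least 5 reads in another library at 21 regions, 13.7%, against 11.2% of the table. Sdk1 had 6 of them, Rbms3, Accn1 and Fam155a 4 each, Auts2 2 and Camta1 1. Dab1 and Sox5 had 0. The highest counts opposite a Th1 zero were in Treg, 13 at a Sdk1 intron (142579633 to 142580034) and 12 at another (142615128 to 142615404), with 3 and 4 naive reads. An Accn1 intron (81023873 to 81024103) and a Fam155a intron (9347290 to 9347516) each held 11 Treg reads, with 3 and 4 naive. In naive the highest were 7 reads, at an Rbms3 intron (116695993 to 116696202) and a Fam155a intron (9671476 to 9671705), each with 8 Treg reads. The region without a naive read was a Dab1 intron (103914244 to 103914540) with 3 Th1 and 5 Treg reads.

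A stretch of Sdk1 without Th1 reads was singled out after its values were seen. Its 3 neighbouring intronic regions (141981161 to 141985717) held 5, 4 and 3 naive reads, 8, 9 and 7 Treg reads and 0 Th1 reads in all 3. Together that is a naive value of 12.0 and a Treg value of 8.46. For comparison, 3 Th1 reads over the stretch would give 5.04. The naive value was 2.37-fold that level and the Treg value 1.68-fold, before the counting error of the naive and Treg reads themselves. The exact interval for 0 Th1 reads reaches 6.20, above that level, so these folds are not lower limits on the difference from Th1. Runs of 3 neighbours without a Th1 read numbered 1 of 137 in the 8 genes and 4 of 2674 in all genes. The pattern was thus not particular to Sdk1. Depth goes with this result, since Th1 is the shallowest library, and its part was not tested.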

How the data were processed

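Methylated genomic DNA was captured with a MethylCap kit and sequenced, 1 library for each of 4 populations, per the labels' protocols, from 250 ng of captured DNA with fragments of 250 to 350 bp. Bowtie 0.12.7 and FastQC, and the mm9 build, are listed in the submitters' processing notes; how regions were called, chosen, assigned to genes and scaled was not given in the sources used here. Values as the authors deposited them hold a signal per region. Dividing each library's deposited values by 1 fixed step gave whole numbers, taken as reads, for 100% of naive, Th1 and Treg values (relative tolerance 1e-06). Th17 values are all 0 and gave no step.

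The table's gene label chose the 153 regions. A gene that the choice also names is not reported here, and all values over the genes are without it. Gaps run from the end of a region to the start of the next. Ratios are of summed values, with exact binomial intervals at 95% on the reads, and means have exact Poisson intervals. With 1 library per group no test between populations was run. Regions past 2-fold used a pseudocount of 0.5. The interval function was checked on simulated reads. Of the genes with 10 or more regions, 2 labels shared by several loci were left out, a choice made after the data were examined. Each gene's strongest region, closest and widest gaps and zeros against at least 5 reads were named by rule. The genes, lists and rules were chosen with earlier results of these data known. Gene names were looked up, and promoter windows taken, from RefSeq tables of GRCm38.p6; no genome of build mm9 was used, so the regions' own sequences are not shown. Python 3.11.15, NumPy 2.4.6, pandas 2.3.3, SciPy 1.17.1 and matplotlib 3.10.9 were used.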

Additional observations from a re-analysis of the deposited data

How the results depend on the processing

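Of 84 alternatives over 13 results, 62 kept the value within its interval or the count within 1.5 times, 21 moved it and 1 reversed it. At equal table totals the Treg to Th1 log2 ratio reversed, at 0.11, the Treg to naive ratio moved to -0.15 and regions lower in Treg than in naive numbered 22; Th1 to naive kept its direction. Leaving out each of the 8 genes in turn kept all 3 ratios within their intervals, as did intronic regions alone and the median over regions, but the Treg to Th1 interval then included 0 without Sdk1, without Dab1 and for intronic regions alone. At 1.5-fold, 41 regions were higher and 69 lower in Th1 than in naive (31.6% and 37.2% of the table), 15 and 71 in Treg than in naive (16.1% and 39.2%), and 47 and 51 in Treg than in Th1 (26.3% and 35.2%). At 4-fold they numbered 4 and 23 (4.08% and 12.1% of the table), 1 and 5 (1.62% and 3.46%), and 19 and 2 (9.78% and 3.22%), in the same order. A pseudocount of 5 left 1 and 5 (1.91% and 2.21%), 0 and 2 (0.06% and 0.73%), and 0 and 0 (0.18% and 1.71%). With at least 2 reads asked of each library, 76 regions passed in place of 130. Neighbours within 5, 20 and 50 kb made up 11.0%, 34.5% and 63.4% of gaps, by construction of the limit. The filter on regions under 5 reads removed 0 regions. Joining regions within 1 kb left 147 regions, with a median gap of 34.2 kb. No paired analysis was possible because each population has 1 library. Depth limits every gene, with 26 to 48 Th1 reads each.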

Other observations

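Across the 153 regions of the 8 genes, regions with more naive reads tended to have fewer Th1 and fewer Treg reads. Spearman's rho was -0.31 between naive and Th1 reads and -0.25 between naive and Treg reads, and 0.07 between Th1 and Treg. All other 9847 regions gave -0.27, -0.22 and 0.02, so the pattern runs through the table. The points share the 3 libraries and the unknown choice of regions, and the values are a description with no test. Naive reads also varied less between regions than counting alone gives for equal regions, where the variance equals the mean: the variance divided by the mean was 0.701 over the 8 genes and 0.719 elsewhere, against 0.854 and 0.901 in Th1. In Treg it was 1.02 over the 8 genes and 1.36 elsewhere. How the authors chose the regions is not given, and its part in these values was not tested.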
